A study of Mus musculus with 24 samples.

Results

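The comparison described here is the loss of U11 small nuclear RNA from the mouse forelimb bud at embryonic stage E11.5. Its members were chosen by the labels alone: 3 libraries of E11.5 mutant forelimb (FL) and 3 of E11.5 WT FL, 6 of the 24 libraries of the series. Both groups were of strain C57/Bl6 and carried floxed alleles of Rnu11, the gene for U11. The WT embryos had the genotype U11flx/flx::Prrx1-Cre- and the mutants U11flx/flx::Prrx1-Cre+, so the WT group is a floxed control without the recombinase. Total RNA of dissected buds was sequenced from stranded libraries, and the other groups used here are the E11.5 hindlimb (HL) and the E10.5 FL, again 3 WT and 3 mutant libraries each. Prrx1-Cre is active in limb mesenchyme, so ectoderm, vessels, blood and muscle precursors of a mutant bud keep their U11. The labels do not say whether a library came from 1 embryo or from several, and p-values therefore measure the spread between these libraries.

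U11 and U12 are the small nuclear RNAs with which the minor spliceosome recognises a rare class of introns, called U12-type or minor introns. U11 base-pairs with the start of such an intron and U12 with its branch point, whereas the bulk of introns is recognised by U1 and U2. A minor intron usually sits alone among major introns in a gene for information processing, cell division or transport, and an unspliced transcript is generally retained in the nucleus or degraded. In the limb bud, mesenchymal progenitors divide under the influence of FGF, SHH and WNT signals before they condense into cartilage.

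All levels below are deposited TPM (transcript abundance per length and per library total, as the authors scaled it) after the medians of the libraries over 3949 genes had been made equal. Differences are on the scale log2(rescaled TPM + 1), mutant minus WT, with their standard error (SE), and are smaller than the true fold for genes near 1 TPM. Rnu11 measured 1110, 1065 and 1149 rescaled TPM in WT replicates 1 to 3 and 201, 132 and 116 in the mutants. Every mutant library lay far below every WT library. The mutant mean of 149.7 ± 45.2 was 13.5% of the WT mean of 1108 ± 42.1 (SD, n = 3), a log2 difference of -2.92 ± 0.27 (SE, limma, adjusted p = 0.000658). An exact two-sided permutation test of 3 against 3 gave p = 0.1, the smallest value it can give. Gm28872, a predicted gene annotated across Rnu11 on the opposite strand, had a difference of -2.41 ± 0.22 (adjusted p = 0.000658); since the strand counted is not given in the sources used here, its reads and those of Rnu11 may not be separable. Rnu12, the gene for the partner RNA U12, ranged from 11.7 to 14.8 rescaled TPM in WT and from 6.86 to 25.1 in the mutants, and did not pass the test (-0.18, adjusted p = 0.868).

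Prrx1, the gene whose promoter drives the recombinase, was at 43.4 to 56.4 rescaled TPM in WT and 40.2 to 49.7 in the mutants, with overlapping groups (-0.09 ± 0.15). Tbx5, which marks forelimb, was at 6.74 to 7.15 in WT and 6.28 to 7.82 in the mutants, while the hindlimb genes Tbx4, Pitx1, Hoxc10 and Hoxc11 together summed to 0.803 to 1.08 in WT and 0.777 to 1.31 in the mutants. The forelimb gene was thus present and the hindlimb genes close to 0, as the labels have it. The summed level of 9 limb mesenchyme markers was 157 to 173 rescaled TPM in WT and 153 to 164 in the mutants. The 8 surface ectoderm markers summed to 54.9 to 76.5 in WT and 39.3 to 52.3 in the mutants, and the 6 endothelial markers to 9.67 to 12.8 and 13.3 to 18.97, without overlap in either case. The ectoderm markers did not move alike, with differences from -0.96 (Krt14) to 0.05 (Krt8). In mutant replicate 3 Krt8 (7.54) and Krt18 (5.25) were above every WT library. On the deposited scale Krt14 stood at -0.47 and the other ectoderm markers above 0. Sums for erythroid (1960 to 4070 against 2558 to 3074), myeloid (3.69 to 5.51 against 3.86 to 10.2), muscle precursor (7.33 to 10.8 against 9.15 to 16.2) and nerve and neural crest markers (8.78 to 10.9 against 10.49 to 12.9) overlapped. All markers of these 8 lists were above 0 in each of the 6 libraries. In such bulk samples fewer cells of a type and less RNA per cell cannot be told apart. The Y-linked gene Ddx3y was at 12.5 to 14.7 rescaled TPM in WT and at 12.2 and 10.6 in mutant replicates 1 and 2, but at 0.025 in mutant replicate 3. Uty, Eif2s3y and Kdm5d, also Y-linked, were at 0, 0 and 0.016 there. This library thus held next to no RNA of male tissue, unlike the other 5. The part of sex in X-linked genes such as Eda2r and Lage3 was not tested. Without mutant replicate 3 the myeloid sums of the mutants were 7.504 and 10.2 and the muscle precursor sums 16.2 and 13.5, both above all WT libraries. Rnu11 was then lower by -2.76 (adjusted p = 0.00243). In the same limma fit Eda2r stood at 2.25 (adjusted p = 4.67e-06) and Lage3 at -1.19 (adjusted p = 0.00324). Nuclear protein-coding genes took 14.7% to 17.3% of the deposited TPM in WT and 18.0% to 22.9% in the mutants, and on the deposited scale the median gene stood 0.39 higher in the mutants on the log2 scale (-0.018 after rescaling).

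The sequences that carry the comparison are the 5′ end of U11 and the intron starts it pairs with. U11 is transcribed from chr4:132270080-132270213 on the minus strand of GRCm38 (GENCODE M21), and the capitals mark bases 3 to 7, which are complementary to the conserved part of the minor intron start.
Rnu11: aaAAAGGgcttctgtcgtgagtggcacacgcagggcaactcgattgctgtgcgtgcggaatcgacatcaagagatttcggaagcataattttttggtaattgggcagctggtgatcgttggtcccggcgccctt

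Intron starts could be read where an annotated transcript runs into an intron of another, which gave the first 12 bases of 36065 of 222925 introns (16.2%) in 12300 of 20452 protein-coding genes. The U12-type start, taken as intron bases 1 to 8 being GTATCCTT or ATATCCTT on the transcribed strand, was found in 165 of these introns (0.458%) and 145 genes. There were 118 introns of the first form and 47 of the second. Where the end could be read too, 56 of 56 GTATCCTT introns ended in AG and 21 of 25 ATATCCTT introns in AC, the terminal pairs known for minor introns. Among all readable introns 35185 started with GT and 80 with AT, so the GT form does not by itself set minor introns apart. The first 12 intron bases of genes called lower in mutant FL follow, with the 8 bases of the U12-type start in capitals and coordinates of the whole intron in GRCm38. For the last line of the set the same 8 positions of a major intron are in capitals for contrast.
Spc24 intron 2, chr9:21757395-21757684, minus: ATATCCTTtgct
Spc24 intron 4, chr9:21756296-21757116, minus: GTATCCTTtgag
Ap4s1 intron 5, chr12:51730900-51738552, plus: GTATCCTTtttc
Uba3 intron 5, chr6:97192785-97196836, minus: GTATCCTTtcaa
Mysm1 intron 3, chr4:94970702-94972917, minus: GTATCCTTcatc
Tbce intron 5, chr13:14010642-14014734, minus: GTATCCTTaaac
Ift80 intron 2, chr3:68990964-68994500, minus: ATATCCTTtaac
Polr2e intron 4, chr10:80036843-80036914, minus: GTATCCTTtact
Rpl28 intron 1, chr7:4792999-4793320, plus: GTGAGTGTgagg

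The 3′ ends of some of these introns were readable as well. Their last 40 bases are shown with the best match to the branch point with which U12 pairs (TCCTTAAC or TCCTTGAC) in capitals. The match was perfect in Ift80 and Polr2e and had 1 mismatch in Spc24 intron 2, and in these it ended 8 to 12 bases before the end of the intron. In Spc24 intron 4 the best match had 3 mismatches.
Ift80 intron 2: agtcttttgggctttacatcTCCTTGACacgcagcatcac
Polr2e intron 4: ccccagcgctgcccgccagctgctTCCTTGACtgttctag
Spc24 intron 2: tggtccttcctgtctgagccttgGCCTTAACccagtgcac
Spc24 intron 4: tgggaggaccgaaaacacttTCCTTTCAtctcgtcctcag

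Mutant and WT forelimbs differed in 194 of 11126 genes tested (adjusted p under 0.05). Of all genes tested, 0.476% were called higher (53 genes) and 1.27% lower (141 genes). The WT and mutant groups did not overlap in any of the 194, as is usual for genes chosen by a small p. Absence of overlap was also seen in genes not called, such as Pcna (limma, adjusted p = 0.151) and Tyms (adjusted p = 0.226). The median difference of the called genes was -0.593 for those lower and 0.572 for those higher, and 9 fell and 5 rose by at least 2-fold on this scale. The calls depended on single libraries: leaving out the first WT replicate gave 418 and the first mutant replicate 333, whereas there were 39 and 44 after removal of WT replicate 2 or 3, and 34 and 78 after removal of mutant replicate 2 or 3. A total of 30 genes (21 lower, 9 higher) passed with each of the 6 libraries left out, and "in all 6 leave-outs" below refers to this. WT1 to WT3 and Mut1 to Mut3 stand for the libraries by their replicate number. On the deposited scale 33.6% of genes were called, 3691 of them higher, and 17 of the 141 called lower here stood above 0.

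Of 120 tested genes with a U12-type intron start, 15 were called lower (12.5%, beside 1.27% of all genes) and 1 higher (0.833%, beside 0.476%). Of the 120, 87 lay below 0, and the median difference was -0.163. Of 7552 tested genes with readable intron starts and no such site, 78 were called lower (1.03%) and 33 higher (0.437%), with a median of -0.0099. The lower quartile was -0.345 with the site and -0.151 without it. A difference below -0.5 was seen in 17.5% of the genes with the site and 1.89% of those without. On the deposited scale both medians were above 0, at 0.244 and 0.408, with the same order. In HL the genes with the site had a median of -0.016 and those without it -0.032. There 0 of the 120 were called, beside 0.018% of all genes. The number called lower among the 120 was 18 without WT1, 14 without Mut1, 4 without WT2 or WT3, 3 without Mut2 and 10 without Mut3. The median stayed between -0.186 and -0.149 in these 6 fits. Of the 141 genes called lower, 94 had a readable intron start, and the introns of the others were not analysed here.

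**Figure D1:**
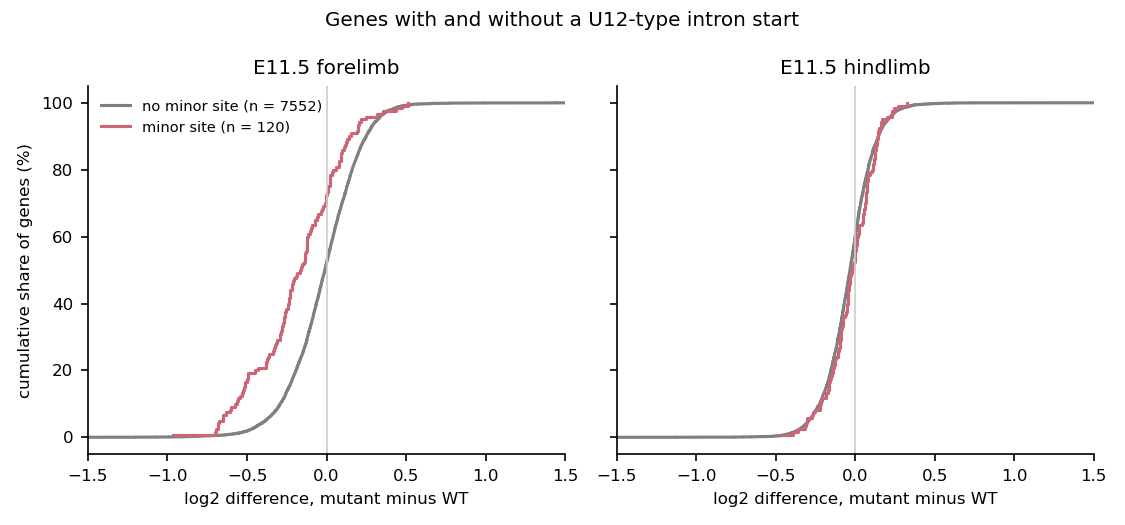
Cumulative share of genes (per cent) against the log2 difference, mutant minus WT, for genes with a U12-type intron start and for genes with readable starts and no such site, in E11.5 forelimb and hindlimb. In forelimb the curve of the 120 genes with the site lies to the left of the other over its lower part and middle (medians -0.163 and -0.0099); in hindlimb the medians are -0.016 and -0.032.

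Spc24, a subunit of the kinetochore complex that holds chromosomes to spindle microtubules, has a pair of U12-type introns. It measured 12.3, 13.5 and 12.2 rescaled TPM in WT and 5.29, 5.68 and 7.11 in the mutants. All mutant libraries were below all WT libraries, at 47.5% of the WT mean. The difference was -0.97 ± 0.11 (adjusted p = 0.00174).

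Ap4s1, the small subunit of the AP-4 adaptor that sorts cargo at the trans-Golgi, was at 4.70, 5.01 and 4.68 rescaled TPM in WT and 2.60, 2.56 and 2.69 in the mutants, a clear gap between narrow groups. Its difference was -0.68 ± 0.08 (adjusted p = 0.00193). Uba3, the catalytic subunit of the enzyme that activates the ubiquitin-like protein NEDD8, was at 29.3, 31.4 and 27.3 in WT and 19.4, 16.4 and 19.2 in the mutants. The mutant libraries were again all lower, by -0.65 ± 0.09 (adjusted p = 0.00596). Spc24, Ap4s1 and Uba3 were the members of the scan that passed in all 6 leave-outs, and without Mut3 their differences were -1.07, -0.69 and -0.68.

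Others of the 15 members called lower have roles in tubulin folding (Tbce, -0.70), histone H2A deubiquitination (Mysm1, -0.70), nuclear transport (Ranbp17, -0.68), cilium assembly (Ift80, -0.65), protein palmitoylation (Zdhhc17, -0.63), DNA replication (Rfc5, -0.57, and Pole2, -0.45), translation initiation (Eif3i, -0.50), DNA repair (Babam1, -0.50), transcription (Polr2e, -0.49) and centrosomal microtubule nucleation (Nedd1, -0.38). Mysm1 lost its call only without Mut2 (adjusted p = 0.0507), and the rest of those named here lost theirs in 3 to 6 of the 6 leave-outs, with adjusted p of up to 0.175, in each case among them those without WT2, WT3 and Mut2. On the deposited scale Eif3i (0.01), Polr2e (0.01), Pole2 (0.004) and Nedd1 (0.07) turned to just above 0. The member called higher was Med23, a Mediator subunit, at 4.69 to 5.18 rescaled TPM in WT and 6.08 to 8.51 in the mutants (0.47 ± 0.10, adjusted p = 0.0364, lost without WT2, WT3, Mut1 or Mut2, at adjusted p of up to 0.134). Members outside the rule for named genes were chosen after their values were seen. A list of 47 minor-intron genes written from general knowledge gave 7 lower and 0 higher of 45 tested (median -0.139, and 0.304 on the deposited scale). Of all genes tested, 1.27% were called lower and 0.476% higher. The list was drawn up with earlier results of these data known and is not independent evidence. It includes Kifap3, whose intron starts could not be read.

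**Figure D2:**
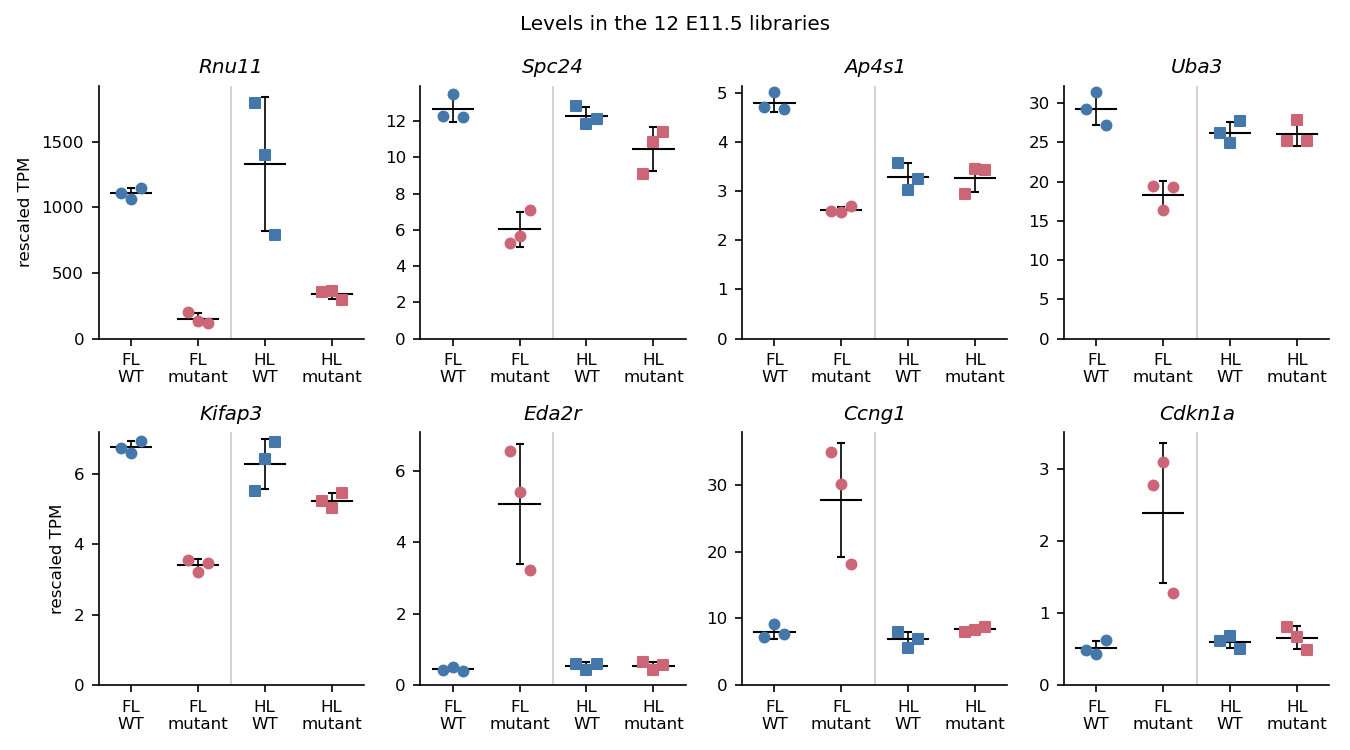
Rescaled TPM of 8 genes in each E11.5 library (points), with group means (horizontal lines) and SD (error bars, n = 3), for forelimb (circles) and hindlimb (squares), WT and mutant. In the forelimb panels all mutant points lie below all WT points for Rnu11, Spc24, Ap4s1, Uba3 and Kifap3 and above them for Eda2r, Ccng1 and Cdkn1a.

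Several of the strongest falls were single subunits of complexes whose other members did not pass the test. In the NDC80 complex, Spc24 fell and its partners Ndc80 (-0.19 ± 0.09), Nuf2 (-0.15 ± 0.12) and Spc25 (-0.20 ± 0.10) had adjusted p of 0.235 to 0.465. On the deposited scale the 3 partners stood at 0.30 to 0.35 and Spc24 at -0.50. In kinesin-2, the motor that carries cargo outward along the cilium, Kifap3, the accessory subunit, measured 6.73, 6.59 and 6.93 rescaled TPM in WT and 3.54, 3.22 and 3.47 in the mutants. The groups were tight and far apart, with a difference of -0.81 ± 0.08 (adjusted p = 0.000708, passing in all 6 leave-outs). The motor subunits Kif3a (-0.23 ± 0.10), Kif3b (0.10 ± 0.07) and Kif3c (0.03 ± 0.10) did not pass. Without Mut3 Kifap3 stood at -0.82, and Sptssa and Lage3, described next, at -0.99 and -1.19.

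Serine palmitoyltransferase makes the first intermediate of sphingolipids. Its small activating subunit Sptssa was at 17.4, 23.3 and 20.1 rescaled TPM in WT and 9.64, 9.68 and 10.1 in the mutants, with every mutant library below every WT library (-0.97 ± 0.09, adjusted p = 0.000658, all 6 leave-outs). The catalytic pair Sptlc1 (-0.09 ± 0.09) and Sptlc2 (-0.07 ± 0.08) and the regulators Ormdl1, Ormdl2 and Ormdl3 (-0.26 to 0.16) did not pass. In KEOPS, the complex for a universal tRNA modification, Lage3 fell from 15.4, 19.4 and 16.6 to 7.85, 6.03 and 7.89 rescaled TPM (-1.14 ± 0.12, adjusted p = 0.0015, all 6 leave-outs). Osgep, the catalytic subunit, was at -0.16 ± 0.10 and Tprkb at -0.05 ± 0.13. The readable intron starts of Lage3 were not U12-type, and none of Sptssa could be read.

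Of 17 tested subunits of intraflagellar transport complex B, which builds cilia, Ift80 passed. It measured 9.65, 8.79 and 9.37 rescaled TPM in WT and 5.78, 4.33 and 6.75 in the mutants, without overlap (-0.65 ± 0.13, adjusted p = 0.0284, lost without WT2, WT3 or Mut2 at up to 0.0973). Ift81 (-0.60, adjusted p = 0.0753), Ift74 (-0.52, adjusted p = 0.0547) and Ttc30b (-0.40, adjusted p = 0.0543) had large differences that missed the threshold. The median of the 17 was -0.160 (0.234 on the deposited scale), beside -0.018 over all genes. Of 8 genes listed for the THO complex of mRNA export and its partners (Alyref, Ddx39b), 1 passed. It was the scaffold subunit Thoc2 (-0.63 ± 0.13, adjusted p = 0.0411, passing 1 of the 6 leave-outs, with up to 0.16). Of 13 genes listed for RNA polymerase II, with the associated Polr2m among them, Polr2e and Polr2k were lower (-0.49 and -1.03, adjusted p = 0.027 and 0.0494) and Polr2l was higher (0.37, adjusted p = 0.0271). These calls were lost without WT2, WT3 or Mut2, and those of Polr2k and Polr2l also without Mut3, at adjusted p of up to 0.175. Whether any subunit differed from its partners was not tested.

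**Figure D3:**
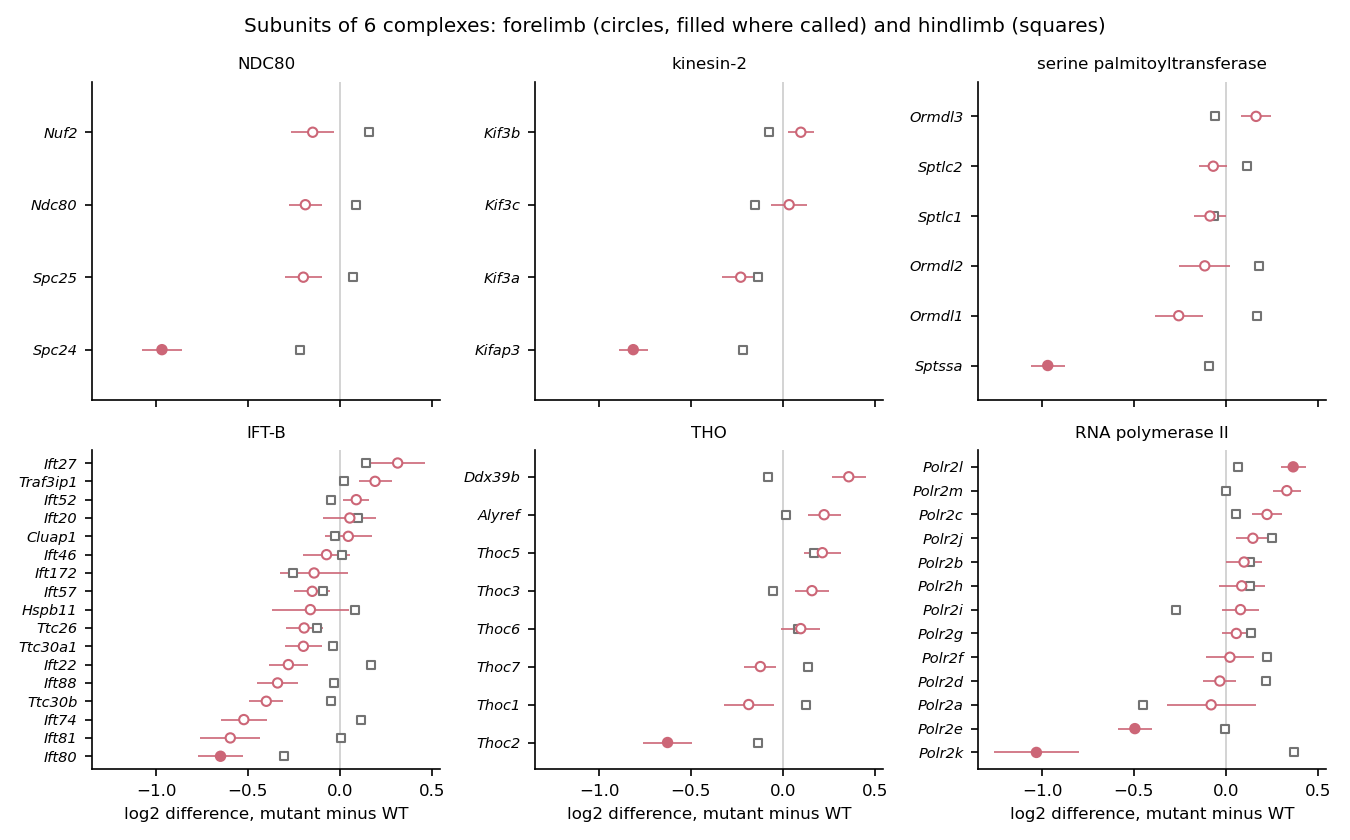
Log2 difference, mutant minus WT, of each tested gene listed for 6 complexes in E11.5 forelimb (circles with SE, filled where adjusted p is under 0.05) and hindlimb (squares). In the NDC80, kinesin-2 and serine palmitoyltransferase panels 1 subunit lies between -0.81 and -0.97 and the others between -0.26 and 0.16.

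The strongest fall after Rnu11 was Rpl28, a protein of the large ribosomal subunit, at 78.8, 79.2 and 84.8 rescaled TPM in WT and 12.4, 11.8 and 13.8 in the mutants. The groups were separated by a wide gap, with a difference of -2.59 ± 0.08 (adjusted p = 2.67e-08). It was lower in mutant HL as well, at 79.5 to 90.9 in WT against 9.32 to 10.52 (-2.98, adjusted p = 5.33e-09). At E10.5 the FL difference was -0.31 with overlapping groups. Rpl28 did not pass the direct test of a difference between the stages given below. Read trimming also differed between the stages. Of 81 tested cytosolic ribosomal protein genes Rpl28 was the 1 called. The median of the list was -0.074 (0.439 on the deposited scale). The readable intron starts of Rpl28 were of the major type. Ribosomal protein genes have processed pseudogenes with which reads can be shared, and the part of such sharing in the Rpl28 values was not tested.

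Among the largest falls were also Pde6d, which delivers lipid-modified proteins to cilia (5.55, 5.51 and 4.90 rescaled TPM in WT against 2.32, 2.23 and 2.51), and Sox6, a transcription factor of cartilage formation (7.46, 5.12 and 6.18 against 3.10, 2.73 and 2.69). Neither pair of groups overlapped. Both differences were -0.91, with SE of 0.09 and 0.12 and adjusted p of 0.000658 and 0.00585, and both passed in all 6 leave-outs, as did Ccdc28b, a modifier of ciliary disease (-0.89 ± 0.13). Alcam, a cell adhesion molecule (-0.94 ± 0.16, adjusted p = 0.0202), and Glrb, a glycine receptor subunit (-0.87 ± 0.15, adjusted p = 0.0192), were lower but lost their calls without WT2, WT3, Mut2 or Mut3, at up to 0.0891.

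Further genes lower in all 6 leave-outs, named after their values were seen, were Phyh, the peroxisomal enzyme of phytanic acid oxidation (-0.99 ± 0.13), Magt1, a subunit of the oligosaccharyltransferase (-0.86 ± 0.11), Coa3, an assembly factor of cytochrome c oxidase (-0.82 ± 0.10), Dap3, a protein of the mitochondrial ribosome (-0.77 ± 0.11), Kcnj2, an inward-rectifier potassium channel (-0.73 ± 0.09), Tbc1d32, a ciliary protein of SHH signalling (-0.65 ± 0.08), and Fgd4, an exchange factor for CDC42 (-0.58 ± 0.08). Their adjusted p ran from 0.00246 to 0.00716. Has2, the main hyaluronan synthase of the limb bud, was at 7.23, 6.85 and 7.61 rescaled TPM in WT and 4.18, 4.46 and 3.46 in the mutants, without overlap (-0.71 ± 0.11, adjusted p = 0.00968, and 0.0508 without WT3). It too was named after its values were seen.

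Targets of p53, the transcription factor that answers to DNA damage and other stress with cell-cycle arrest or death, gave 10 of the 53 rises. Of 50 tested targets on 3 lists, 10 were called higher and 0 lower, where 0.476% of all genes were called higher, and their median was 0.194 beside -0.018. In HL 0 of the 50 were called, beside 0.018% of all genes, and the median was -0.055. These lists were drawn up with earlier results of these data known and are not independent evidence of their direction. Without WT2, WT3 or Mut2, 3 of the 50 were called higher, and 11, 7 and 12 without WT1, Mut1 and Mut3. Without WT1, 1 of the 50 was called lower.

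Among 14 tested targets for cell death, 4 rose (median 0.390). Eda2r, a receptor of the TNF receptor family on the X chromosome, was at 0.423, 0.4997 and 0.405 rescaled TPM in WT and 6.55, 5.42 and 3.23 in the mutants. The gene was close to silent in every WT library and clearly expressed in every mutant one, 11.4 times higher on average. Its difference of 2.03 ± 0.17 (adjusted p = 0.000473) was the largest rise of all. Aen, a nuclease of apoptotic DNA breakdown, rose from 4.07, 3.51 and 3.91 to 8.88, 8.61 and 7.03 rescaled TPM (0.92 ± 0.12, adjusted p = 0.00541). Both passed in all 6 leave-outs. Phlda3, an inhibitor of AKT, was higher by 0.90 ± 0.19 (adjusted p = 0.041), and Bax, which permeabilises mitochondria, by 0.66 ± 0.11 (adjusted p = 0.0188). They lost their calls without WT2, WT3 or Mut2, and Phlda3 also without WT1 or Mut1, at up to 0.155.

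Among 19 tested targets for arrest and feedback, 5 rose (median 0.217). Ccng1, cyclin G1, measured 7.20, 9.19 and 7.64 rescaled TPM in WT and 34.9, 30.1 and 18.2 in the mutants, with every mutant library far above every WT library. Its difference was 1.63 ± 0.20 (adjusted p = 0.00265, all 6 leave-outs). Cdkn1a, the cyclin-dependent kinase inhibitor p21, was at 0.486, 0.428 and 0.628 rescaled TPM in WT and 2.78, 3.09 and 1.28 in the mutants (1.12 ± 0.18, adjusted p = 0.016). Mut3 was the lowest mutant library for Eda2r, Aen, Ccng1 and Cdkn1a, yet above all WT libraries. Sesn2, a regulator of mTORC1 (0.91), Gtse1, a mitotic protein that binds p53 (0.74), and Psrc1, a spindle protein (0.51), had adjusted p of 0.029, 0.0284 and 0.0476. Cdkn1a, Sesn2, Gtse1 and Psrc1 lost their calls without WT2, WT3 or Mut2, Sesn2 and Psrc1 also without Mut1 and Psrc1 without WT1, at up to 0.175. Of 17 tested targets for repair and metabolism 1 rose, Dcxr, a carbonyl reductase (0.64 ± 0.12, adjusted p = 0.0239, lost without WT2, WT3 or Mut2 at up to 0.0871).

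The promoters of the p53 targets were searched for the p53 response element, which is a palindrome and so reads alike on both strands. It was taken as 2 abutting half-sites with at most 2 mismatches, none of them at the C or G of a half-site. The windows ran from 250 bases before to 50 after each gene start (RefSeq, GRCm38.p6). Of all 32851 windows, 107 (0.326%) held one. Of the 50 tested targets 41 had a window and 4 held the element, namely Ccng1, Cdkn1a, Gtse1 and Ckap2. Of the 10 called targets, all with a window, 3 held it. Some targets had several windows, so these counts of genes are not in the unit of the 0.326%. Cdkn1a and Gtse1 each had another window, at another gene start, whose best match had 7 and 6 mismatches. The element had 1 mismatch in the first 3 and 2 in Ckap2, a microtubule protein with a difference of 0.01 ± 0.09 (adjusted p = 0.945). The windows of Ccng1 (chr11:40755237-40755536, minus strand) and Cdkn1a (chr17:29090729-29091028, plus strand) are shown with the element in capitals. It begins 195 and 51 bases before the gene start of the window shown.
Ccng1: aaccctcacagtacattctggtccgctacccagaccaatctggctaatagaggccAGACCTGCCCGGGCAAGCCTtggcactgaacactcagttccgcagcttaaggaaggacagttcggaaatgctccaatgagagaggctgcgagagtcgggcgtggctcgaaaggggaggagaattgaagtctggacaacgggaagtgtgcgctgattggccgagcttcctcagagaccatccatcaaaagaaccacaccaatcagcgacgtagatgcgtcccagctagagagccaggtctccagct
Cdkn1a: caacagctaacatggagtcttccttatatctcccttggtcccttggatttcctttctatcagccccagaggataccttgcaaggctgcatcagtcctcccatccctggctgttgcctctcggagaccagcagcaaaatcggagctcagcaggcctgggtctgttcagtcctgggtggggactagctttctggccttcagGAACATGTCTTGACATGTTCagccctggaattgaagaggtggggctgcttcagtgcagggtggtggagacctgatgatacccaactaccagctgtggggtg

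For Gtse1 and Ckap2 the element is shown with 10 bases on each side.
Gtse1: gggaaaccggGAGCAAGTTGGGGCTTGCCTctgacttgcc
Ckap2: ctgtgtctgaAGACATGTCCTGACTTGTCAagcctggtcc

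**Figure D4:**
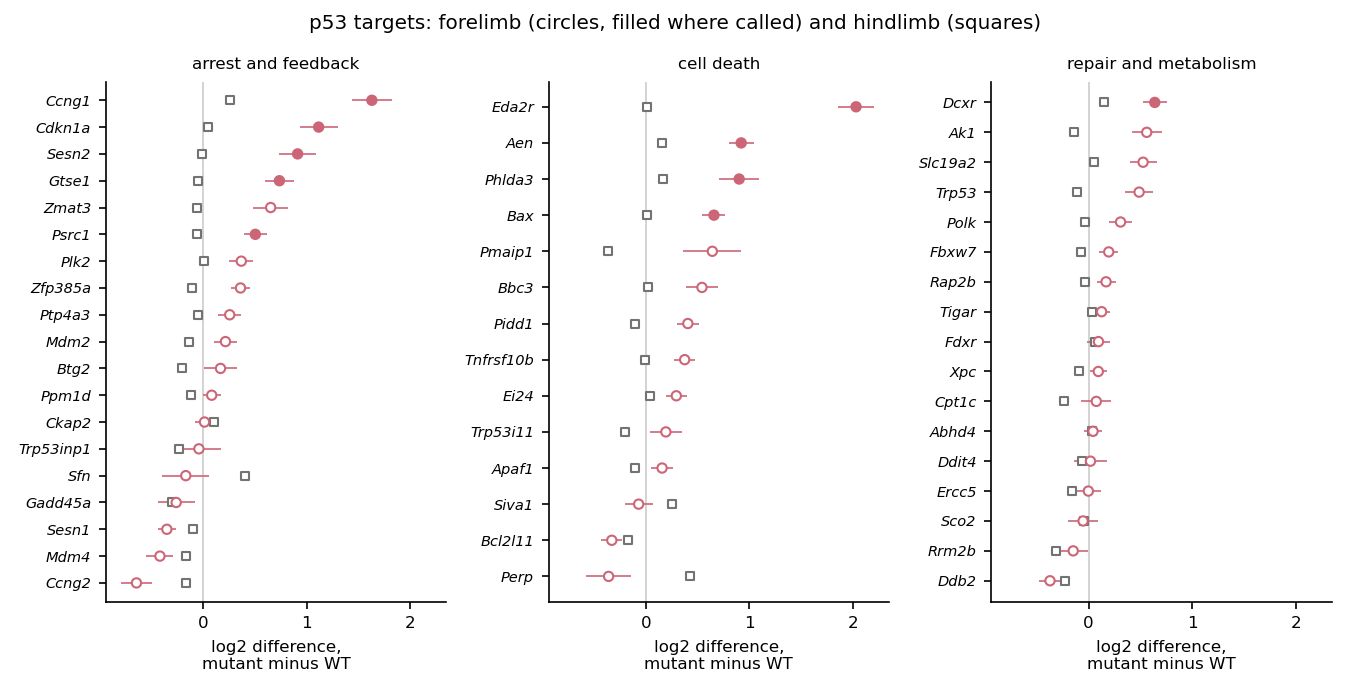
Log2 difference, mutant minus WT, of the 50 tested p53 targets in 3 classes, in E11.5 forelimb (circles with SE, filled where adjusted p is under 0.05) and hindlimb (squares). The 10 filled circles lie between 0.51 and 2.03, and the largest hindlimb value among these 10 genes is 0.26, for Ccng1.

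Of the rises outside the p53 lists, Cdc34, an E2 enzyme of SCF ubiquitin ligases, measured 13.96, 14.7 and 15.6 rescaled TPM in WT and 22.2, 23.98 and 21.3 in the mutants, without overlap (0.58 ± 0.08, adjusted p = 0.00722). It passed in all 6 leave-outs, as did, named after their values were seen, the palmitoyltransferase Zdhhc7 (0.68 ± 0.07), Spag1, a factor for the assembly of ciliary dynein (0.66 ± 0.09), the glutamine transporter Slc1a5 (0.65 ± 0.09) and the endopeptidase Phex (0.64 ± 0.09). Snhg3, a snoRNA host gene (0.89 ± 0.20, adjusted p = 0.049), passed in none of the 6, with up to 0.137. Cpne1, a calcium-dependent lipid-binding protein (0.78), Prkar2a, a regulatory subunit of protein kinase A (0.71), Srm, spermidine synthase (0.64), and Nabp2, a single-stranded DNA-binding protein (0.57), were higher with adjusted p of 0.0266 to 0.04. They passed 2 of the 6 each and lost their calls without WT2, WT3, Mut2 and either Mut1 (Prkar2a) or Mut3 (the others), with up to 0.156.

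Among the minor spliceosome's own proteins 1 of 13 was called, Ccdc84, at 1.44, 1.44 and 1.80 rescaled TPM in WT and 3.41, 3.77 and 2.90 in the mutants (0.77 ± 0.12, adjusted p = 0.0148, lost without WT2 or Mut2 at up to 0.084). Snrnp48 and Pdcd7, which bind U11 and U12 as a pair, were at 0.45 (adjusted p = 0.177) and 0.06 (adjusted p = 0.648). The median of the 13 was 0.004.

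The signalling and patterning genes of the limb bud are to be read beside the 0.476% of all genes called higher and 1.27% called lower. Of 20 tested genes of the SHH pathway and posterior mesenchyme, 24 proximodistal genes, 20 of BMP signalling and 10 of limb identity 0 were called, with medians of 0.102, 0.173, -0.106 and 0.057 (0.142, 0.094, -0.008 and 0.061 without Mut3). At an unadjusted p under 0.05, 2504 of the 11126 genes differed. Smo, the SHH signal transducer, was at 12.8 to 14.4 rescaled TPM in WT and 14.2 to 15.7 in the mutants (0.13 ± 0.07), and Shox2, a proximal limb factor, at 28.3 to 32.3 and 28.4 to 34.3 (0.05 ± 0.22). Of 15 FGF signalling genes, Etv4, a transcription factor induced by FGF, was higher (8.50, 6.74 and 6.86 against 10.3, 12.1 and 10.3, 0.51 ± 0.10, adjusted p = 0.03), and Fgfr2, an FGF receptor, lower (22.8, 22.02 and 20.1 against 16.8, 16.5 and 16.7, -0.36 ± 0.08, adjusted p = 0.0444, but 0.14 on the deposited scale). Of 25 WNT and dorsoventral genes 1 was called, the ligand Wnt11 (4.04, 5.001 and 4.96 against 2.64, 2.44 and 1.21, -0.90 ± 0.20, adjusted p = 0.049). Etv4 and Wnt11 lost their calls without WT2, WT3, Mut2 or Mut3, and Fgfr2 in all 6 leave-outs, with up to 0.153. Of 24 limb mesenchyme genes Pdgfra was lower (-0.40 ± 0.08, adjusted p = 0.0411, 0.10 on the deposited scale, up to 0.127 in the leave-outs, none of which it passed).

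Of 14 chondrogenic genes 1 was called, Sox6, which was lower. The other members ranged from -0.88 to 0.09, 13 of the 14 lay below 0, and the median was -0.464 (-0.077 on the deposited scale, -0.313 without Mut3). Sox9, the master regulator of cartilage, was at 3.56, 2.82 and 2.38 rescaled TPM in WT and 1.74, 1.76 and 1.38 in the mutants, without overlap, and did not pass (-0.57 ± 0.24, adjusted p = 0.198). Col2a1, the main cartilage collagen, was at 13.3 to 15.5 and 7.91 to 14.1, with overlap (-0.45 ± 0.24, 0.03 on the deposited scale). In HL, where 0 of the list and 0.018% of all genes were called, the median of the same list was -0.457. Of 62 genes of G1/S and DNA replication 2 were lower, Rfc5 and Pole2, and of 70 of G2/M 2 were higher, Gtse1 and Psrc1, with medians of 0.007 and -0.044. Of all genes tested, 1.27% were called lower and 0.476% higher. Rfc5 and Pole2 were already counted among the genes with a U12-type start, and Gtse1 and Psrc1 among the p53 targets. Of 30 tested genes of the integrated stress response 0 were called, 25 lay above 0 and the median was 0.154, and of 18 of the BCL2 family and caspases 0 were called (median -0.040).

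Short structural RNAs and histone mRNAs had medians well below that of all genes on the rescaled levels. Of 87 tested genes annotated as snoRNA, which guide the chemical modification of ribosomal RNA, 1 was called and the median was -0.469. Of 14 scaRNAs, which guide the modification of spliceosomal RNAs, 3 were called lower (Gm22767, -1.25, Gm22442, -1.21, and Gm22009, -0.94) and the median was -0.733. Beside these counts stand the 1.27% of all genes tested that were called lower. Terc, the telomerase RNA, was at 62.9, 77.8 and 52.99 rescaled TPM in WT and 31.6, 35.4 and 33.5 in the mutants (-0.91 ± 0.20, adjusted p = 0.0494, lost in all 6 leave-outs at up to 0.166). The scaRNA calls passed 1 to 4 of the 6 leave-outs, with up to 0.151, and the snoRNA, Snora78 (-1.57 ± 0.31, adjusted p = 0.0316), passed 1, that without WT1. Of 66 replication-dependent histone genes 0 were called, 61 lay below 0 and the median was -0.439 (0.072 on the deposited scale). Without Mut3 the histone, snoRNA and scaRNA medians were -0.449, -0.298 and -0.569, with 0 called in each. On the deposited scale the snoRNA and scaRNA medians were 0.0 and -0.215. The share of protein-coding RNA also differed between the groups, as given above, and the part of library composition in these medians was not tested.

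The same contrast in the hindlimb gave 2 calls, 0.018% of 11126 genes, and 670 at an unadjusted p under 0.05. They were Rpl28 and Gm24405, a predicted snRNA gene listed at 0 in all 6 FL libraries. The FL and HL effects were compared directly as a difference of differences, in which 1 gene passed (0.00899% of those tested, and 1493 at an unadjusted p under 0.05). It was Eda2r, at 0.409 to 0.597 rescaled TPM in WT HL and 0.429 to 0.632 in mutant HL, so that the HL groups overlapped while the FL groups were far apart. The difference of effects was 2.02 ± 0.24 (adjusted p = 0.036). It passed in 3 of 12 fits that left out 1 E11.5 library, with adjusted p of up to 0.181. For other genes, calls in FL and not in HL do not show that the limbs differed. Genes called lower in FL had a median of -0.107 in HL, with 115 of 141 below 0, and those called higher 0.048, with 33 of 53 above 0. For comparison, the 7552 genes with readable intron starts and no U12-type site had an HL median of -0.032, itself below 0. Rnu11 itself was at 787 to 1798 in WT HL and 293 to 365 in mutant HL (-1.90, adjusted p = 0.0764), and its limb difference did not pass (-1.02 ± 0.39, adjusted p = 0.343).

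Between E11.5 FL and E10.5 FL the effect differed for 8 of 12399 genes (0.0645%, and 1578 at an unadjusted p under 0.05). Per the labels, E10.5 reads were trimmed and E11.5 reads were not, so that stage and read processing cannot be told apart. E10.5 levels are from a rescaling over all 24 libraries. Eda2r rose more at E11.5 (1.69 ± 0.22, adjusted p = 0.00181), having gone from 0.502 to 0.751 in WT to 1.07 to 1.28 in the mutants at E10.5, and this passed in all 12 leave-outs of FL libraries. Ap4s1 was at 4.76 to 5.63 in WT and 5.74 to 6.59 in the mutants at E10.5, above rather than below WT, with a difference between stages of -0.91 ± 0.16 (adjusted p = 0.0385), which passed in 1 of 12 leave-outs, with adjusted p of up to 0.147. The 120 genes with a U12-type intron start had a median of -0.028 at E10.5.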

How the data were processed

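Total RNA libraries of dissected limb buds were deposited by the authors as TPM per gene symbol, each library summing to 1000000. The submitters' processing notes name HISAT2 and mm10, with quantification, annotation and strand not given in the sources used here, and since depth cannot be had from TPM, how precise low values are is not known. Per the labels, E10.5 reads were trimmed. Libraries were grouped by the labels. Of the genes, those reaching 1 TPM in 3 or more of the 12 E11.5 libraries were kept for the fit. Libraries were rescaled to a common median over genes with at least 5 TPM in all, and log2(rescaled TPM + 1) was fitted with limma 3.58.1 (R 4.3.3, intensity trend, 8 residual degrees of freedom). All tests were two-sided, p-values were adjusted over all genes after Benjamini and Hochberg, and the threshold was 0.05. The stage comparison used all 24 libraries.

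Intron starts were read from GENCODE M21 transcripts (GRCm38), as no genome sequence was used, and symbols matched for 36287 of 38019. Members and lists were chosen with earlier results of these data known. Named genes are Rnu11, Prrx1, the 12 largest rises and falls without overlap and with at least 5 rescaled TPM in the higher group (no predicted genes), from each list the first 5 members to pass or else the 2 of highest level, and all tested subunits of the complexes; others are marked as named after their values were seen. Some genes that the rule names are not reported here. The procedure was tested on simulated data. Replicates correlated at 0.965 to 0.980 within FL groups. Alternatives were another pseudocount, filter or scale, other sets of libraries, a block on the replicate number, and leave-outs of single libraries. Versions of Python (3.11.15) and matplotlib (3.10.9) apply to tables and figures.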

Additional observations from a re-analysis of the deposited data

Results flagged for a closer look

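The effect of the mutation on Eda2r differed between FL and HL by 2.02 on the log2 scale, and between E11.5 and E10.5 FL by 1.69. Both were picked out by a test of the difference of effects, and the first passed in 3 of 12 leave-outs.

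The effect also differed between E11.5 and E10.5 FL, by the same kind of test, for 7 further genes, given here as E11.5 minus E10.5 effect with deposited TPM. Wsb2, a SOCS-box protein, had a difference of 1.08, with 6.11 to 7.07 in WT and 2.73 to 5.20 in mutants at E10.5, and 2.52 to 2.64 in WT and 4.89 to 6.47 in mutants at E11.5. Prkar2a had a difference of 1.21, with 10.4 to 12.4 and 5.44 to 9.88 at E10.5 and 3.37 to 5.24 and 8.65 to 12.2 at E11.5. Rab8a, a GTPase of vesicle transport to cilia, had a difference of 0.91, with 21.8 to 26.1 and 11.3 to 18.8 at E10.5 and 5.31 to 10.4 and 12.6 to 17.3 at E11.5. In these 3 genes the mutants lay below WT at the earlier stage and above WT at the later one.

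Ap4s1 had a difference of -0.91 and the snoRNA Snora78 one of -3.54. The predicted gene Gm17530 had a difference of -6.63, with 0 to 1.52 in WT and 7.19 to 32.3 in mutants at E10.5 and 1.27 to 30.2 and 0.605 to 1.54 at E11.5. The predicted gene Gm28037 had one of 6.35: it was at 59.5 to 130.5 in the 3 WT FL libraries of E10.5, listed at 0 in the mutants of that stage and in WT at E11.5, and at most 0.18 in E11.5 mutants. Eda2r, Gm17530 and Gm28037 passed with each of 12 FL libraries left out, Wsb2 with 11 of them, Snora78 with 2, and Ap4s1, Prkar2a and Rab8a with 1 each. Since trimming of reads differed between the stages, the part of read processing in these differences was not tested.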

How the results depend on the processing

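The fall of Rnu11 kept its direction and passed in every fit that held it, between -2.40 (deposited scale) and -3.15; it is absent from the fits on protein-coding genes. Against 194 genes called in FL, the deposited scale gave 3733, protein-coding genes summed anew 103, no filter 56, the 6 FL libraries alone 40 and all 24 libraries 64, and leave-outs gave 34 to 418. Equal replicate numbers gave residual correlations of 0.025 to 0.033 between WT and mutant FL, and of -0.011, 0.259 and 0.178 between mutant FL and mutant HL, not all over 0.1 as pairing would need. With the replicate number as a block 102 genes were called, 93 of them shared in the same direction. The limb difference gave 3 genes on the deposited scale, 2 with a pseudocount of 0.1, 0 without a filter, 0 with the block (Eda2r 2.02, adjusted p = 0.0866), and 0 to 5 in leave-outs. The stage difference gave 8, or 3 on the deposited scale, 6 with a pseudocount of 0.1, 9 without a filter, 8 with the block and 3 to 9 in leave-outs. A filter on rescaled values (192) and protein-coding genes rescaled (149) were chosen after seeing the data. On the deposited scale Polr2e (0.0062), Pole2 (0.0041), Fgfr2 (0.14), Pdgfra (0.10), Eif3i (0.0131) and Nedd1 (0.0705) turned above 0. Of 75 called genes named in the text, 47 kept their call and direction there, 27 with the 6 libraries alone and 48 under the block. The cause of these changes was not tested. With TPM alone, the depth behind low genes is unknown.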

Other observations

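A few further calls are given as values, chosen after they were seen and from no list. Myc, a transcription factor of growth, was at 0.825, 1.34 and 1.24 rescaled TPM in WT and 2.53, 2.01 and 1.98 in the mutants, without overlap (0.58 ± 0.12, adjusted p = 0.041). Rrp12 (0.61), Pa2g4 (0.45) and Ppan (0.41), which act in ribosome assembly, had adjusted p of 0.032 to 0.0477. Hyou1 (0.57, adjusted p = 0.0474) and Dnajb11 (0.42, adjusted p = 0.0364) are chaperones. Myc lost its call in all 6 leave-outs and the others in 4 of 6, with adjusted p of up to 0.175.

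Of genes that mark cells outside the mesenchyme, Lbx1, a factor of migrating muscle precursors, was at 0.389, 0.466 and 0.431 in WT and 0.929, 0.972 and 1.28 in the mutants (0.52 ± 0.09, adjusted p = 0.0192, lost without WT2, WT3, Mut2 or Mut3 at up to 0.0784). Cadm2, an adhesion molecule of nerve cells, was at 1.597, 1.67 and 1.55 in WT and 0.432, 0.563 and 0.422 in the mutants (-0.82 ± 0.12, adjusted p = 0.00882, and 0.0503 without WT2). It was the 1 called of 6 tested genes of the nerve and Schwann cell list, whose median was -0.124 (0.219 on the deposited scale). In the same list Gap43, a protein of growing axons, ranged from 3.98 to 5.18 in WT and from 5.72 to 9.15 in the mutants, without overlap (0.60, adjusted p = 0.0505). The chemokine receptor Cxcr4 was at 2.04, 2.10 and 2.15 in WT and 3.99, 4.47 and 3.68 in the mutants (0.70 ± 0.14, adjusted p = 0.0309, up to 0.133 in the 4 leave-outs that lost it). Of 17 endothelial, 11 erythroid, 7 myeloid and 21 surface ectoderm genes tested, 0 were called, with medians of 0.229, 0.142, 0.264 and -0.128 (0.247 on the deposited scale for ectoderm). Krt14, an ectodermal keratin, ranged from 18.7 to 33.5 in WT and from 6.59 to 18.1 in the mutants (-0.96 ± 0.46, adjusted p = 0.241).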
